A study of Mus musculus with 6 samples.

Results

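The endocrine-like nuclei of the embryonic day 10.5 (E10.5) mouse pancreas were 134 of the 1538 nuclei profiled by single-cell ATAC sequencing at that stage, 68 in the wild-type (WT) library and 66 in the KO library. ATAC sequencing cuts accessible DNA with a transposase, and the deposited values are a gene score, the accessibility assigned to each gene in each nucleus. The nuclei were chosen by their scores: among the 1335 with at least 2000 genes above 0, they are the top 10% by the summed score of Neurod1, Myt1, Cryba2, Ptprn2 and Pax4. The other 1201 kept nuclei (647 WT and 554 KO) served as the comparison, and 203 nuclei under the minimum were left out (123 WT and 80 KO).

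All embryos were C57BL/6. The WT libraries came from Ptf1a+/+ embryos and the KO libraries from embryos labelled Ptf1aenh-delta/enh-delta, homozygous for the deletion of an enhancer of Ptf1a, which encodes a transcription factor that specifies the pancreas. At E10.5, pancreatic tissue labelled as multipotent progenitor cells (MPCs) was dissected by hand and pooled from 5 to 9 embryos per dataset, and was used for separate RNA and ATAC libraries. At E13.5, whole pancreas of 6 pooled embryos per dataset gave ATAC libraries. With 1 library for each genotype in every assay, no difference has a replicate check and no p-value is given. Endocrine-like and other nuclei are compared within each library, while KO over WT ratios and shares compare 1 library with another. The intervals are 95% intervals of the counting error alone.

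Endocrine cells arise when a progenitor of the pancreatic epithelium switches on Neurog3, a basic helix-loop-helix transcription factor, while Notch signalling, with its target Hes1, holds neighbouring cells in the progenitor state. Neurog3 activates Neurod1, Pax4, Myt1 and Insm1, and the cells then leave the cell cycle and assemble the regulated secretory pathway: hormones, prohormone convertases, granins and the machinery of granule release. In the mouse a first wave of endocrine cells, mostly glucagon cells, forms at this early stage.

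The 5 genes of the rule differed in how much they weighed in the choice. Ptprn2, a receptor-type phosphatase of the dense-core granule membrane, gave 52.1% of the endocrine-like nuclei's summed score. Cryba2, a crystallin found in endocrine cells, gave 22.1% and Neurod1, a transcription factor downstream of Neurog3, gave 13.5%. The transcription factors Myt1 and Pax4 gave 6.59% and 5.68%. The summed score had a median of 27.3 in the endocrine-like nuclei, with a highest value of 50.2, and a median of 6.91 in the others. The cut fell in a continuum, since the lowest value inside was 19.779 and the highest outside 19.684. Either 4 or 5 of the rule genes were above 0 in 70.9% of the endocrine-like nuclei and in 35.5% of the others, and 48 endocrine-like nuclei had all 5. These values made the choice and are a description of it. The rule genes lie on 4 chromosomes of mm10: Neurod1 at chr2:79452521-79456751, Myt1 at chr2:181763332-181827797, Cryba2 at chr1:74889934-74893143, Ptprn2 at chr12:116485720-117276849 and Pax4 at chr6:28442334-28449353 (GENCODE M21).

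Each rule gene was then described in nuclei chosen by the other 4 alone, so that the gene itself took no part. Pax4 had a mean score of 1.42 in the 134 nuclei so chosen and 0.369 in the rest of the WT library, and 1.45 against 0.406 in the KO library. Its log2 ratios were 1.95 in WT and 1.83 in KO. Cryba2 stood at 4.88 against 1.62 in WT and 5.27 against 1.66 in KO, log2 ratios of 1.59 and 1.66. The ratios of Myt1 were 1.49 and 1.75, those of Ptprn2 1.33 and 1.49, and those of Neurod1 0.81 and 1.24. All 5 were higher in nuclei picked without them, Neurod1 by the least in both libraries. The nuclei so picked were largely the same ones. Of the 134, 95 were endocrine-like nuclei when Ptprn2 was left out, and 118 to 127 for the other genes. The 5 genes were put together with earlier results of these data known, so this too is a description.

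The share of endocrine-like nuclei was similar in the 2 libraries. It was 9.51% of the kept WT nuclei (68 of 715, exact binomial interval 7.46 to 11.9%) and 10.6% of the kept KO nuclei (66 of 620, 8.33 to 13.3%). The KO share was higher by 1.13 percentage points, with a Newcombe interval from -2.09 to 4.44 points that includes 0. The cut fixes the share over both libraries together, so only its division between them was free. The libraries had 0 barcodes in common. The endocrine-like nuclei had a median of 4993 genes above 0 in WT and 4594.5 in KO, against 5254 and 5627.5 in the other nuclei. The part of this depth gap in the results below is given where the comparison was repeated at matched numbers of genes.

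Across the 8213 genes outside the rule that were above 0 in at least 10% of kept nuclei, 29 had a mean score at least 2-fold higher in the endocrine-like nuclei in both libraries, 0.353% of the genes. Another 38 genes were at least 2-fold lower in both, 0.463%. The median log2 ratio over all genes was -0.03 in each library, 28.9% of genes were above 0 in both and 35.7% below 0 in both. The comparison is a description, because the nuclei were chosen by scores from the same matrix. With the other nuclei weighted to the endocrine-like nuclei's numbers of genes above 0, 28 genes were higher, 26 of them among the 29. The count depends on where the cut lies, with 35 higher genes for the top 5% and 4 for the top 20%. In the last set 144 WT and 123 KO nuclei were pooled.

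**Figure D1:**
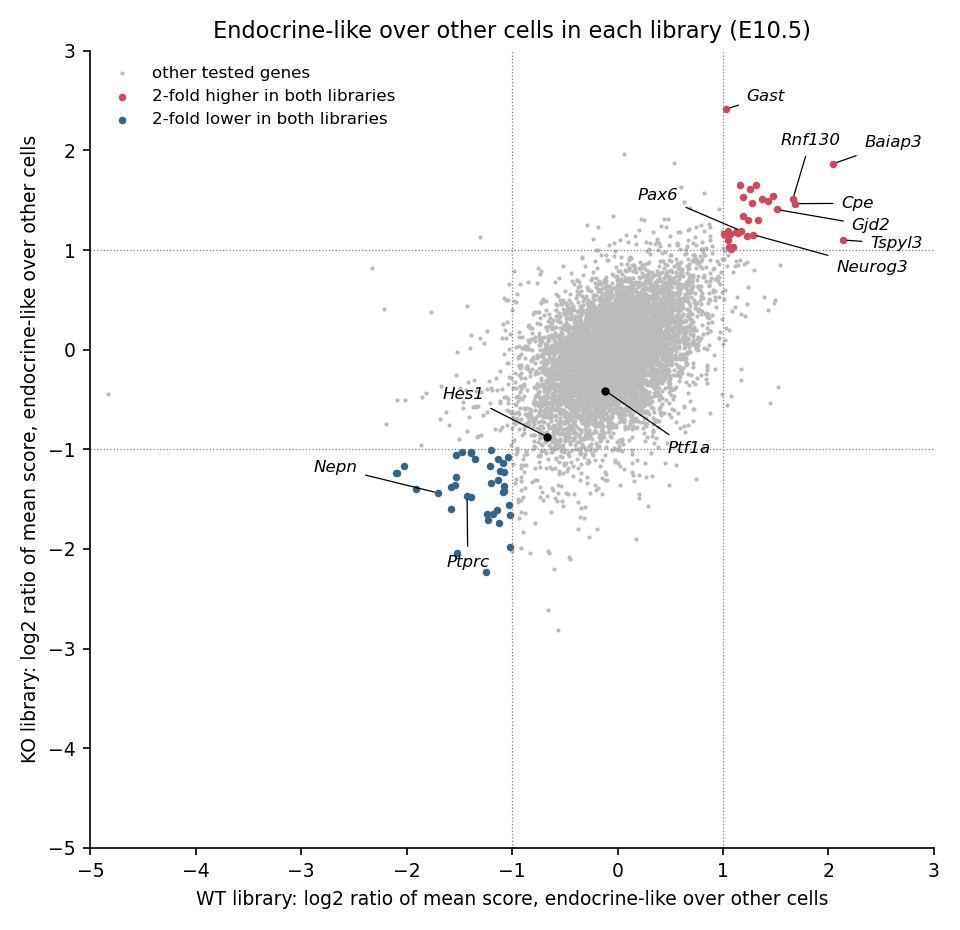
Each point is 1 gene outside the rule, with the log2 ratio of its mean score in endocrine-like over other nuclei in the WT library on the x axis and in the KO library on the y axis. Dotted lines mark 2-fold, and Baiap3, at 2.04 and 1.87, lies at the upper right, among the 29 genes 2-fold higher in both libraries.

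Baiap3, a Munc13-related protein of dense-core vesicle traffic and the only listed marker that the rule did not use, ranked first by the smaller of its 2 ratios. The markers were listed with earlier results of these data known, so this rank is a description. Its score ranged from 0 to 11.4 with a median of 1.54 in the WT endocrine-like nuclei, and from 0 to 6.23 with a median of 1.44 in the KO ones. The median was 0 in the other nuclei of both libraries. Its mean was 2.15 against 0.520 in WT and 1.76 against 0.482 in KO, log2 ratios of 2.04 and 1.87. It was above 0 in 63.2% of WT and 56.1% of KO endocrine-like nuclei, against 25.5% and 30.3% of the others, so single nuclei of the 2 kinds overlapped widely.

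The next genes by the smaller of the 2 ratios divide into secretory, transcriptional and other roles. Cpe, the carboxypeptidase that trims prohormones, had mean scores of 2.03 against 0.631 in WT and 1.80 against 0.653 in KO, log2 ratios of 1.69 and 1.47. Pcsk2, a prohormone convertase, had 3.66 against 1.36 in WT and 3.57 against 1.27 in KO, ratios of 1.43 and 1.49. It was above 0 in 94.1% of WT endocrine-like nuclei and 82.8% of the other WT nuclei, so its difference lay in the size of the score more than in detection. Resp18, a granule protein related to Ptprn2, had ratios of 1.19 and 1.53. Rimbp2, a scaffold of exocytosis sites, had 1.13 and 1.18, and Cacna2d1, a calcium channel subunit, had 1.14 and 1.17. These genes stood higher in both libraries, as the ranking by the smaller of the 2 ratios required.

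Among transcriptional regulators, Neurog3 had a median score of 2.77 and a highest of 19.9 in WT endocrine-like nuclei, and a median of 1.10 and a highest of 19.3 in KO ones. The median was 0 in the other nuclei, although the highest single scores of Neurog3, 49.3 in WT and 26.7 in KO, belonged to nuclei outside the endocrine-like set. Its mean was 3.65 against 1.50 in WT and 3.10 against 1.39 in KO, log2 ratios of 1.28 and 1.16. Pax6, a homeodomain factor of all islet cell types, had 3.50 against 1.55 and 3.32 against 1.46, ratios of 1.18 and 1.19. Runx1t1, a transcriptional corepressor, had 1.19 and 1.34. Celf3, an RNA-binding splicing regulator, had 1.34 and 1.30.

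The remaining named genes carried other or less settled roles. Rnf130, a ubiquitin ligase, had ratios of 1.66 and 1.51. Elp4, a subunit of the Elongator complex, had 1.48 and 1.54, and Gjd2, the gap junction protein connexin 36 of beta cells and neurons, had 1.51 and 1.41. The ratios of Wnk3, Slc7a14, Ank, Ids, Vwa5b2, Slc38a5 and Stfa3 lay between 1.14 and 1.66. Slc38a5 is an amino acid transporter known from alpha cells, and Ids is a lysosomal sulfatase. The other 9 higher genes, named here after their values were seen, were Rph3al, Gast, Kif19a, Immp1l, Tspyl3, Anapc5, Hepacam2, Gars and Gnao1. Gast, the gastrin gene, differed most between libraries, with ratios of 1.03 in WT and 2.41 in KO.

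Promoter sequences of 5 genes of the endocrine-like profile are shown, with matches to 2 hexamers of the E-box family, the sites bound by basic helix-loop-helix factors, in capitals. Other E-boxes were not searched and stay in lower case. They are the 250 bases before the RefSeq start on GRCm38.p6, the assembly that mm10 names, for the proneural gene Neurog3 (chr10:62132840-62133089, plus strand), the convertase gene Pcsk2 (chr2:143545883-143546132, plus strand), the rule gene Cryba2 (chr1:74893144-74893393, minus strand), the exocytosis gene Rimbp2 (chr5:128953487-128953736, minus strand) and the first-ranked gene, Baiap3 (chr17:25256365-25256614, minus strand). Each is printed 5′ to 3′ on the strand of its gene, ending at the base before the start.
Neurog3: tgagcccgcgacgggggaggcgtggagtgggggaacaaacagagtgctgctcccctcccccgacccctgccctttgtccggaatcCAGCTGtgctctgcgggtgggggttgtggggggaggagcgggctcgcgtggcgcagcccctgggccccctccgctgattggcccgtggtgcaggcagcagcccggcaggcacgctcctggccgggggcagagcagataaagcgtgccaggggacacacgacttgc
Pcsk2: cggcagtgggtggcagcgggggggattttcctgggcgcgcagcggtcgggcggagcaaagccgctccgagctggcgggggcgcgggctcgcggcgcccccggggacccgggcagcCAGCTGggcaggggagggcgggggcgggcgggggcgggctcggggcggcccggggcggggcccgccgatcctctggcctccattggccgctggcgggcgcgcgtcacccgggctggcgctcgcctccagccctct
Cryba2: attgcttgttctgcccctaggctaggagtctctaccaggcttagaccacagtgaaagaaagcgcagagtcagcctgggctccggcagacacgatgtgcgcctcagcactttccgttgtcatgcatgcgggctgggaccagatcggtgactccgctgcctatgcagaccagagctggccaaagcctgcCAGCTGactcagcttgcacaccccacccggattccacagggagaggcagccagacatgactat
Rimbp2: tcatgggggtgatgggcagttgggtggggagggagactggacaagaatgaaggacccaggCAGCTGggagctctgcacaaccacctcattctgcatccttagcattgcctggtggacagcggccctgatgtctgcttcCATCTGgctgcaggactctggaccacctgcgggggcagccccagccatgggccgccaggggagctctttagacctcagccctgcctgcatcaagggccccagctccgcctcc
Baiap3: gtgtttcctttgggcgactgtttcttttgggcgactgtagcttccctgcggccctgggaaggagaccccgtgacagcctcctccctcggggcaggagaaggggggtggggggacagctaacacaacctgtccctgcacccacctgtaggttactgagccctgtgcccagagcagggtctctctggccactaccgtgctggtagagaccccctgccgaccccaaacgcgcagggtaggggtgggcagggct

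The search used CAGCTG, which reads the same on both strands, and CAGATG, with its reverse complement CATCTG. The capitals mark CAGCTG 165 bases before the start of Neurog3, 135 before Pcsk2 and 63 before Cryba2. In Rimbp2 they mark CAGCTG 190 bases and CATCTG 112 bases before the start. The Baiap3 window holds neither of these hexamers. CAGCTG was found in 7 of the 26 windows of the 20 genes with the highest ratios (26.9%), in 2 of 9 windows of the 10 lowest and in 954 of the 8457 windows of all measured genes (11.3%). CAGATG was found in 4 of the 26 windows (15.4%), in 2 of 9 and in 823 of 8457 (9.73%). Several windows of 1 gene overlap, as those of Celf3 do, so the windows are not independent. Windows were matched for 6604 of the 8269 measured genes and for 18 of the 20 highest. A match describes the letters and is not a measured binding site.

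Measured from start to start, the 20 highest genes lay apart from one another on the chromosomes. The gene Baiap3 spans chr17:25242659-25256364, Pcsk2 chr2:143546156-143816285, Neurog3 chr10:62133090-62134763 and Cpe chr8:64592542-64693054 (GENCODE M21, GRCm38). None of the 20 highest had its start within 200 kb of the start of a rule gene or of another of the 20. Elp4 and Pax6 are convergent neighbours on chromosome 2 (chr2:105701027-105904564 and chr2:105668900-105697364), with ends 3.66 kb apart and starts 236 kb apart. Immp1l, which starts 0.074 kb from Elp4, had ratios of 1.04 and 1.19, so the 3 genes of this stretch were all 2-fold higher in both libraries. The sources used here do not say how far from a gene the score reaches, and whether neighbours share accessible sites was not tested.

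Neighbours of the rule genes were described in the same way. The rule did not use their scores, but whether they share accessible sites with the rule genes was not tested. Of the 11 measured genes that start within 200 kb of a rule gene, 9 had ratios above 0 in both libraries and 2 below 0 in both, with medians of 0.21 in WT and 0.30 in KO. Over all tested genes the shares were 28.9% above 0 and 35.7% below 0. None of the 11 was 2-fold higher in both. Fev, a serotonin-lineage transcription factor 7.72 kb from Cryba2, had 0.79 and 0.53. Snd1, 25.8 kb from Pax4, had 0.75 and 0.89, and Pcmtd2, 74.5 kb from Myt1, had 1.29 and 0.80.

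The genes that were followed along the rank changed level at different places. Baiap3 had WT means of 2.34 and 1.96 in the bands from 0 to 5% and 5 to 10% of the rank, 0.913 from 10 to 15% and 0.418 in the band from 50 to 100%. Its KO means were 2.00 and 1.51, then 0.430 and 0.407. Cpe had 2.31 and 1.76 in the WT bands inside the cut and 0.549 in the first band outside it, with 2.04, 1.57 and 0.972 in KO. For Baiap3 and Cpe the bands inside stood above all bands outside in both libraries.

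Neurog3 went further out in the KO library, with 2.81 and 3.39 inside the cut, 3.18 from 10 to 15% and 0.824 from 15 to 20%. In WT it had 3.92 and 3.38 inside, 1.80 in the first band outside and 0.946 in the next. Hes1, the Notch effector that represses Neurog3, ran the other way. Its WT means were 3.60 and 4.65 inside, 4.38 and 6.01 in the next bands and 6.73 from 50 to 100%, and its KO means were 3.93 and 3.78 inside and between 6.87 and 7.60 outside. In WT the low Hes1 score thus reached past the cut, and in KO it stopped there. The bands between 5 and 20% hold 27 to 40 nuclei each.

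**Figure D2:**
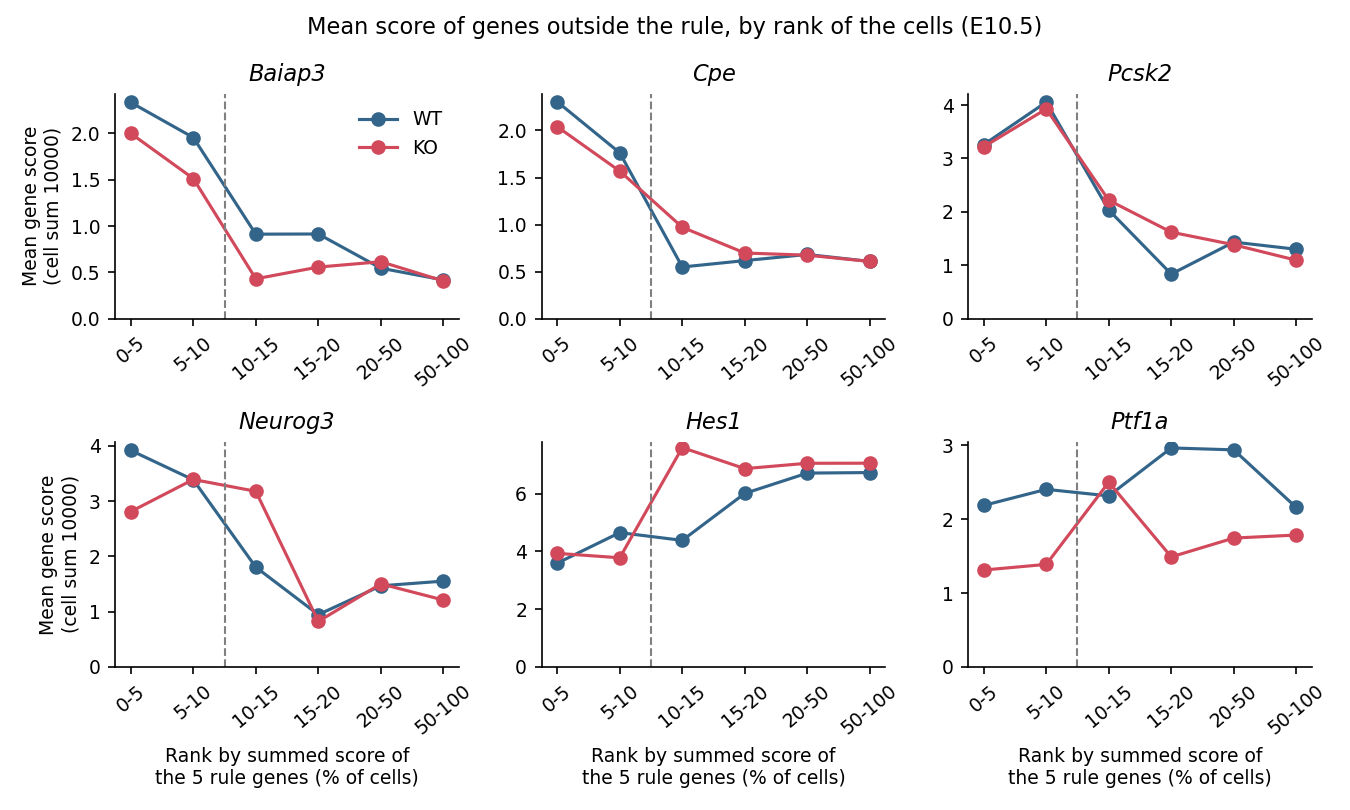
Mean gene score (each nucleus scaled to a sum of 10000) of 6 genes outside the rule, in bands of nuclei ranked by the summed score of the 5 rule genes, for WT and KO, with the 10% cut as a dashed line. Baiap3 and Cpe drop at the cut in both libraries, Hes1 is higher outside it in KO, and Ptf1a is lower in KO than in WT in every band but that from 10 to 15%.

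Gene lists of the pathway showed where the profile was broad. Of 18 measured endocrine transcription factors, 13 had ratios above 0 in both libraries, 4 below 0 in both, and 3 were 2-fold higher in both (Neurog3, Pax6 and Runx1t1), with medians of 0.59 in WT and 0.60 in KO. Over all tested genes, for this list and those below, 28.9% were above 0 in both and 35.7% below 0 in both. The share that was 2-fold higher in both was 0.353%. St18, a zinc-finger factor related to Myt1, had 1.00 and 1.02. Nkx2-2 had 0.67 and 1.20, Insm1 0.61 and 0.74, and Isl1 0.77 and 0.63. Sox11 lay at -0.68 and -0.67 and Sox4 at -0.12 and -0.29. Nkx6-1, a beta cell factor, was near 0 at -0.16 and -0.02.

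Of 22 genes of granules and exocytosis, 17 were above 0 in both libraries and 4 were 2-fold higher in both (Baiap3, Cpe, Pcsk2 and Rimbp2), with medians of 0.49 and 0.81. Chga, a granin, had mean scores of 2.23 against 1.32 in WT and 2.34 against 1.29 in KO, ratios of 0.76 and 0.87. Abcc8, a subunit of the beta cell potassium channel, had 0.75 and 1.23, and Syt13, a synaptotagmin, had 0.82 and 1.58. Scg2, another granin, was lower, at -0.75 and -1.07. The KO median was above the WT median for this list, while for hormones it was below.

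The 8 hormone genes had medians of 0.51 and 0.30, 0 of them were 2-fold higher in both libraries and 4 were above 0 in both. Pyy had 1.09 and 0.78, Iapp 0.96 and 1.41, Gcg 0.69 and 0.60, and Ghrl 0.66 and 0.81. Ins1 was lower, at 0.483 against 0.884 in WT and 0.434 against 0.739 in KO, ratios of -0.87 and -0.77. Sst stood at -0.01 in both libraries. Gcg scores overlapped: the median was 0.356 in WT and 0.375 in KO endocrine-like nuclei, against 0.269 and 0.229 in the others.

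The 13 genes of Notch signalling and early Neurog3 targets were split, with 6 above 0 and 7 below 0 in both libraries. Hes1 had a median score of 3.43 in WT and 2.80 in KO endocrine-like nuclei against 5.95 and 6.42 in the others, and its log2 ratios were -0.67 and -0.87. Notch2, a receptor, had -0.62 and -0.78. Mfng, a glycosyltransferase that modifies Notch, had 0.66 and 0.49, and Btg2, an antiproliferative gene, had 0.41 and 0.69. Notch1, another receptor, was near 0 at -0.10 and -0.08, Rbpj, the DNA-binding partner of Notch, had 0.07 and 0.63, and Hes6 had 0.19 and 0.56. Members of the pathway thus lay on both sides of 0.

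**Figure D3:**
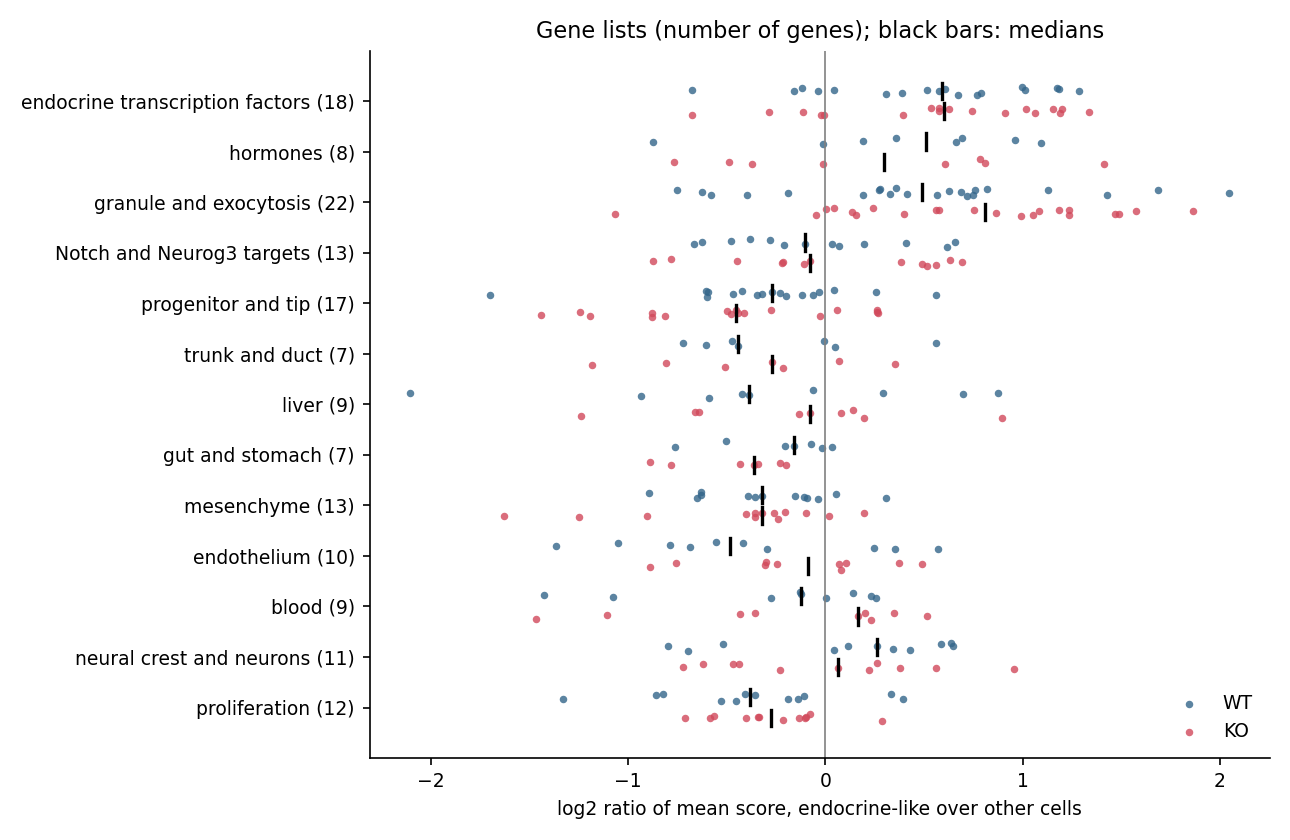
Each point is 1 gene of a list, placed by its log2 ratio of mean score in endocrine-like over other nuclei, in WT and KO, with black bars at the list medians and the number of genes in parentheses. Endocrine transcription factors (medians 0.59 and 0.60) and granule genes (0.49 and 0.81) lie mostly to the right of 0, progenitor and tip genes (-0.27 and -0.45) mostly to the left.

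Most lists of other cell types had medians below 0 in both libraries, except those of blood and of neural crest and neurons. Of 17 progenitor and tip genes, 13 were below 0 in both libraries, with medians of -0.27 and -0.45, and Nepn, a leucine-rich proteoglycan of the foregut, was 2-fold lower at -1.70 and -1.44. Gata4 had -0.60 and -0.88 and Myc -0.60 and -0.45, while Pdx1, which endocrine cells also express, had 0.26 in both. Sox9, a progenitor and duct factor, had mean scores of 13.9 against 16.3 in WT and 13.1 against 17.7 in KO. Medians of trunk and duct genes were -0.44 and -0.27, of gut and stomach genes -0.16 and -0.36, and of mesenchyme genes -0.32 in both. For endothelium they were -0.49 and -0.09, and for proliferation -0.38 and -0.28, with 9 of 12 cell cycle genes below 0 in both and 0 above 0 in both.

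Liver genes had medians of -0.38 and -0.08, with Afp 2-fold lower (-2.10 and -1.24) and Ttr, a carrier protein that islet cells also make, at 0.87 and 0.90. The blood list had medians of -0.12 and 0.17 and a summed level of 4.89 in WT and 4.70 in KO endocrine-like nuclei, against 5.45 and 5.05 in the others. Its leukocyte gene Ptprc was 2-fold lower at -1.43 and -1.47. For the 11 neural crest and neuron genes the medians were 0.26 and 0.07 and the summed level was 12.8 and 12.3 against 12.5 and 11.8. Tubb3, which maturing endocrine cells and neurons share, had 0.64 and 0.96, Sox10 had 0.59 and 0.56, and Phox2a, an autonomic neuron factor, had -0.80 and -0.72. By score at E10.5, no other-tissue list thus matched the medians of the endocrine transcription factors or granule genes. None of the neural crest and neuron genes had a mean of 0, and the part of such cells in the results was not tested.

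The 10 genes with the lowest ratios had mean scores below 1 in both kinds of nuclei. They were Ly6c2, Ppbp, Nepn, Ptprc, Lum, Ms4a6d, Colec10, S100a9, Calcrl and Ctsg, several of them genes of leukocytes and platelets. Ly6c2 had 0.0773 against 0.231 in WT and 0.0672 against 0.204 in KO, and only 4.41% of WT endocrine-like nuclei were above 0. Nepn had 0.265 against 0.861 in WT and 0.284 against 0.771 in KO. Of these 10, Nepn was the one with 50 or more RNA UMIs and a ratio that was 2-fold lower in the RNA too.

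RNA gave another readout, in libraries that the choice did not use. RNA cells with a UMI (a counted transcript molecule) of at least 2 of the 5 rule genes were compared with cells with a UMI of none, 82 against 344 cells in WT and 158 against 188 in KO. The first group made up 18.2% of 451 WT cells (exact binomial interval 14.7 to 22.1%) and 42.8% of 369 KO cells (37.7 to 48.0%). The ATAC rule fixed only the share over both libraries together, and its shares were 9.51% in WT and 10.6% in KO. Depth and free RNA in the droplets move such shares of cells with a UMI, and their part in the difference between genotypes was not tested. The 25 WT and 23 KO cells with a UMI of exactly 1 rule gene were left out. Cells with the rule genes were deeper, with a median of 13208.5 UMIs in WT and 11366.5 in KO, against 4799 and 5796. RNA ratios are log2 ratios of CPM plus 10, where CPM is the share of all UMIs scaled to one total, which understates the ratio of low genes.

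In this comparison 470 of 10182 genes were 2-fold higher in both libraries (4.62%) and 132 were 2-fold lower (1.3%). Of the 29 genes with the higher score, 27 reached 50 UMIs, 24 were 2-fold higher in RNA in both libraries and 26 were above 0 in both. With cells of at least 5000 UMIs alone the count was also 24 of 27. Anapc5 (-0.09 in WT and 0.05 in KO), Immp1l (0.73 and 0.82) and Elp4 (0.96 and 0.78) were the 3 that were not. Stfa3 had 0 UMIs in the RNA cells with the rule genes and in those without, in both libraries. Of the 38 lower genes, 16 reached 50 UMIs, 4 of them were 2-fold lower in both and 12 were below 0 in both. For RNA, the shares of all genes above or below 0 in both libraries are not given, so these counts by sign have no base either. The ratios of the 2 assays had a Spearman correlation across 7450 genes of 0.28 in WT and 0.31 in KO. Genes are not independent replicates, and genes of one cell type share nuclei.

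Baiap3 RNA was at 63.0 CPM in WT cells with the rule genes (interval 49.7 to 78.7) and at 2.70 in cells without (1.08 to 5.55), and at 94.5 against 2.89 in KO. Neurog3 was at 45.0 against 8.47 in WT and 93.0 against 8.11 in KO, log2 ratios of 1.57 and 2.51. Pcsk2 was at 617 against 8.47 and 489 against 9.26, ratios of 5.08 and 4.69. Pax6 had ratios of 4.49 and 4.84, and Slc38a5 of 6.47 and 6.42. Hes1 RNA was at 28.6 against 134 CPM in WT and 25.5 against 123 in KO, ratios of -1.89 and -1.91, on the same side as its score.

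Some genes that stood far apart in RNA did not in accessibility. The 2 contrasts were built differently. RNA cells with a UMI of exactly 1 rule gene were left out, while the other ATAC nuclei include those just under the cut. The part of this in the counts below was not tested. All 8 hormone genes were 2-fold higher in RNA in both libraries, and 0 of 8 were by score. Gcg RNA was at 18913 against 123 CPM in WT and 15129 against 243 in KO, ratios of 7.15 and 5.91, beside score ratios of 0.69 and 0.60. Ins1 had RNA ratios of 4.64 and 4.01 with a score that was lower. Irx2, a homeodomain factor of alpha cells, had 4.69 and 4.40 in RNA, 298 against 1.93 CPM in WT and 335 against 6.37 in KO, beside score ratios of 0.39 and 0.58. All 22 granule genes and 13 of the 18 endocrine transcription factors were 2-fold higher in RNA in both libraries, against 4 and 3 by score. Of the 321 genes 2-fold higher in RNA and measured by ATAC, 24 were 2-fold higher by score (7.48%) and 217 were above 0 by score in both libraries (67.6%). Their median score ratios were 0.41 and 0.47. Over all genes tested by ATAC the shares were 0.353% and 28.9%. Sox4, a high mobility group factor, was the endocrine list's 2-fold lower gene in RNA, at -1.20 and -1.37, and its score was also below 0 in both libraries.

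The same rule was applied to the E13.5 nuclei, which the choice of the E10.5 nuclei did not use. It took 218 of 1850 kept WT nuclei (11.8%, interval 10.3 to 13.3%) and 22 of 545 KO nuclei (4.04%, 2.55 to 6.05%). The barcode labels of these libraries name different months, and at this stage the month cannot be told apart from the genotype. At E13.5, 43 of 8198 genes were 2-fold higher in both libraries (0.525%) and 16 were 2-fold lower (0.195%). Of the 29 genes higher at E10.5, 28 were above 0 in both E13.5 libraries and 11 were 2-fold higher. Immp1l, at 0.14 in WT and -0.36 in KO, was the exception. Of the 38 lower genes, 17 were below 0 in both E13.5 libraries and 2 were 2-fold lower. The shares of all genes above or below 0 in both E13.5 libraries are not given here. The counts by sign thus have no base to be read against. The neural crest and neuron list had E13.5 medians of 0.30 in WT and 1.00 in KO, with 2 genes 2-fold higher in both libraries. Endocrine transcription factors had medians of 0.75 and 1.37, and granule genes of 0.84 and 1.71. Other lists also stood higher in KO, with hormones at 0.11 and 1.07, endothelium at -0.04 and 0.83 and mesenchyme at 0.08 and 0.51. Blood genes had -0.70 and -2.08, with 3 of 9 genes 2-fold lower in both libraries. Proliferation genes had -0.51 and -0.65, and trunk and duct genes -0.30 and -0.20. The part of blood cells among the other E13.5 nuclei in these ratios was not tested.

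Single genes differed in how they carried over. Cpe had log2 ratios of 1.55 in WT and 2.17 in KO at E13.5, Gjd2 1.33 and 2.57, Rimbp2 1.74 and 2.36, and Pax6 1.20 and 2.07. Baiap3, first at E10.5, had 0.99 and 1.69. Neurog3 had 0.91 and 0.11, against 1.28 and 1.16 at E10.5, and Wnk3 had 0.40 and 2.19. The KO values at E13.5 rest on 22 nuclei. The ratios of the 2 stages had a Spearman correlation across 8197 genes of 0.35 in WT and 0.18 in KO.

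**Figure D4:**
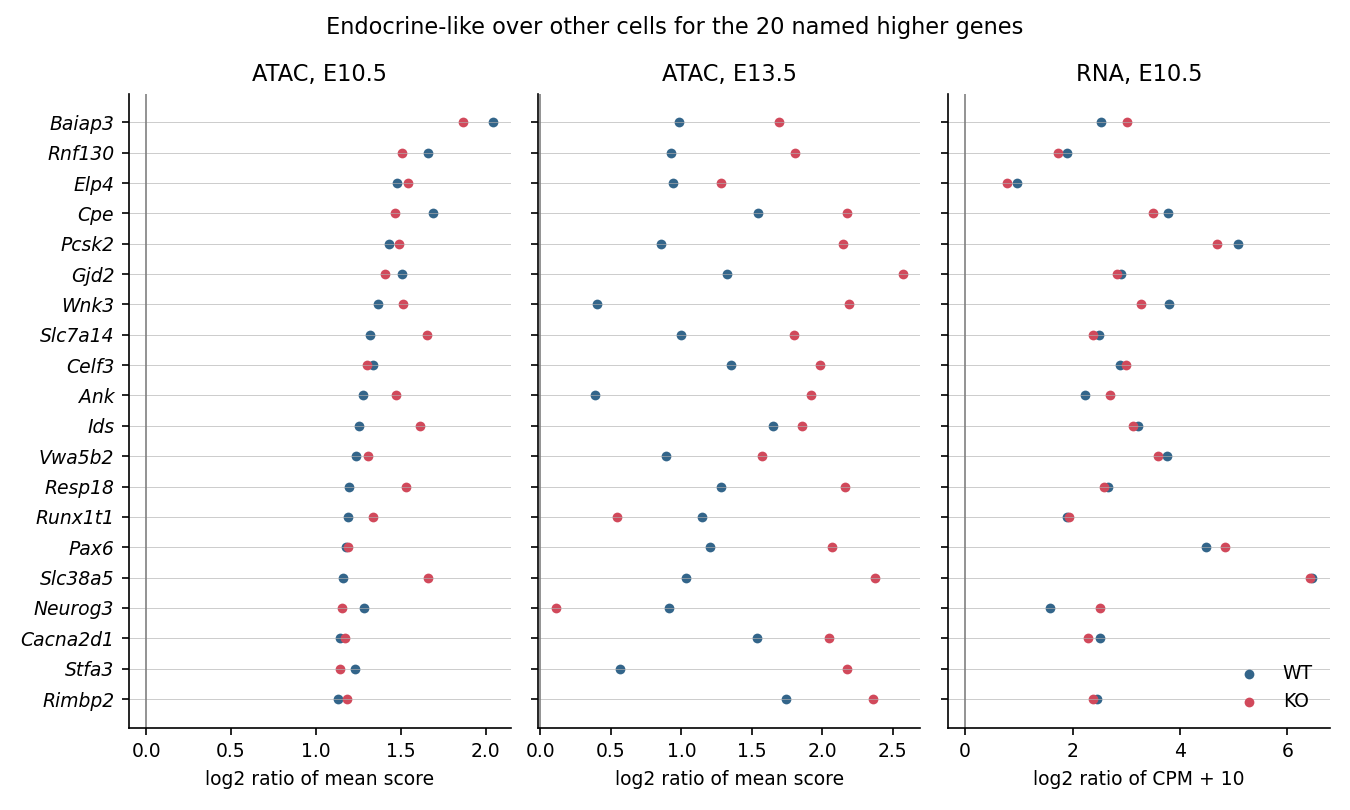
Log2 ratios of endocrine-like over other cells for the 20 named higher genes by ATAC at E10.5 and E13.5 (mean score) and by RNA at E10.5 (CPM plus 10), in WT and KO. Baiap3 is at 2.04 and 1.87, 0.99 and 1.69, and 2.52 and 3.02 in the 3 panels, and Stfa3 has no RNA point because it was under 50 UMIs.

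KO was compared with WT within the endocrine-like nuclei, with the same comparison in the other nuclei beside it. Ptf1a, the gene whose enhancer was deleted, is given first. In the endocrine-like nuclei its score ranged from 0 to 14.0 with a median of 1.06 in WT, and from 0 to 12.0 with a median of 0.242 in KO. The means were 2.30 and 1.35, a log2 ratio of -0.77 for KO over WT. In the other nuclei they were 2.49 and 1.80, a ratio of -0.47. Single nuclei overlapped between genotypes in both sets. Ptf1a ranked 276 from the lowest of 8218 genes in the endocrine-like nuclei and 20 from the lowest of 8219 in the others, where 647 WT and 554 KO nuclei entered the means. The sources used here do not say whether the score counts fragments over the deleted enhancer. In RNA, Ptf1a was at 4.09 CPM in WT cells with the rule genes and 47.8 in WT cells without, and had 0 UMIs in both kinds of KO cell.

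The spread of KO over WT ratios was wider in the endocrine-like nuclei. Their middle 50% lay between -0.26 and 0.23, and that of the other nuclei between -0.09 and 0.08. The means of the other nuclei rest on far more nuclei, 647 in WT and 554 in KO. The part of nucleus number in the spread was not tested. In the endocrine-like nuclei 90 genes were 2-fold higher in KO (1.1%) and 117 were 2-fold lower (1.42%), against 0 and 0 in the other nuclei (0%). With 0 such genes in the other nuclei, no gene could be 2-fold different in both sets. The counts moved to 279 and 325 with the top 5% of nuclei and to 14 and 23 with the top 20%. With 1 library per genotype and 66 to 68 nuclei in each mean, these counts have no error of their own.

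The genes at the extremes were above 0 in few nuclei. Ccl4, a chemokine gene, had the highest ratio, 4.22, with means of 0.00966 in WT and 0.180 in KO and scores above 0 in 1.47% and 3.03% of the nuclei. Slitrk4, a neuronal membrane protein gene, had 2.52, and Bola1, Alkbh8 and Capn6 lay between 2.22 and 2.40. On the lower side, Ms4a6b, BC100530, Ifi207 and Folr2 had ratios between -2.45 and -1.95. Angpt1, the angiopoietin 1 gene, was the best covered of the 10, at 1.09 in WT and 0.278 in KO, above 0 in 45.6% and 21.2% of the nuclei. In the other nuclei Angpt1 stood at 0.780 and 0.712.

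**Figure D5:**
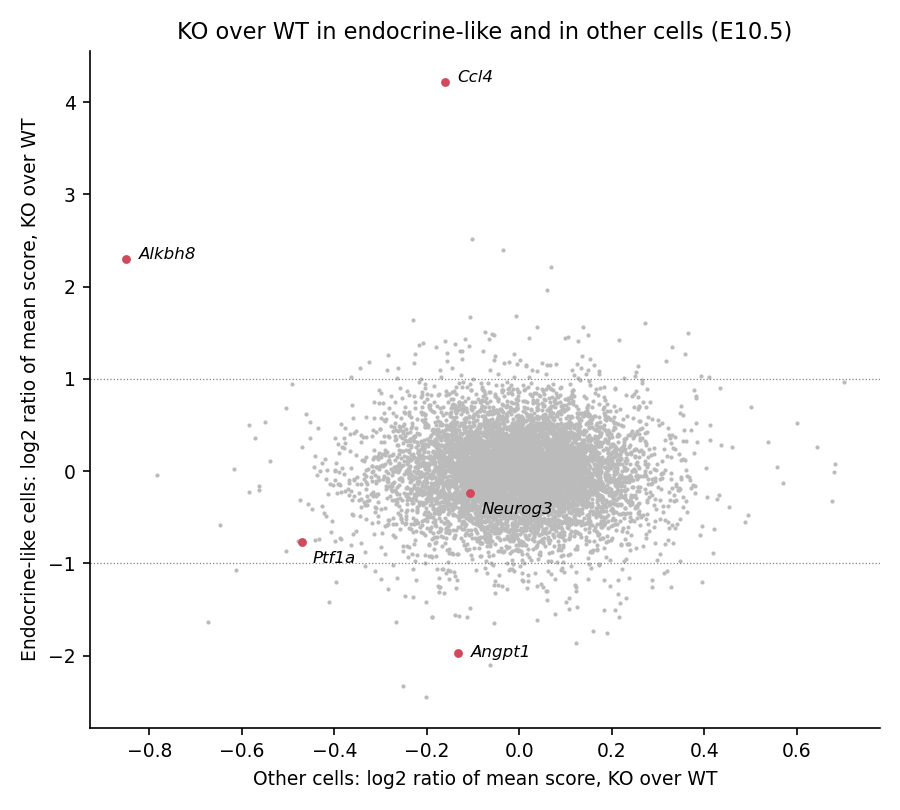
Each point is 1 gene, with the log2 ratio of its mean score in KO over WT in the other nuclei on the x axis and in the endocrine-like nuclei on the y axis, and dotted lines at 2-fold. The endocrine-like axis spreads wider, and Ptf1a is below 0 on both, at -0.47 and -0.77.

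Most endocrine genes named here differed little between genotypes inside the endocrine-like nuclei. Nuclei of both genotypes passed the same cut, so genes that go with the rule genes were partly matched by the choice. The median KO over WT ratio was 0.04 for endocrine transcription factors and 0.06 for granule genes, beside -0.01 for all genes. For hormones it was -0.13, against 0.10 in the other nuclei. Neurog3 had means of 3.65 in WT and 3.10 in KO, a ratio of -0.24. Pax6 had -0.07, Pcsk2 -0.03, Cpe -0.17 and Baiap3 -0.29. Slc38a5, at 1.52 and 2.04, had 0.43. The rule genes were themselves used in the choice, and their KO over WT ratios lay between -0.04 for Cryba2 and 0.33 for Myt1. All of these but those of Baiap3, Slc38a5 and Myt1 were within the middle 50% of genes.

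Within the endocrine-like nuclei, pairs of genes that mark different steps showed no more than weak relations. Neurog3 was above 0 in 45 of 68 WT and 44 of 66 KO nuclei, and Pcsk2 in 64 and 61. Both were above 0 in 43 WT and 43 KO nuclei, nearly all of those with Neurog3, as Pcsk2 was above 0 in nearly every nucleus. Hes1 was above 0 in 55 and 53, and together with Neurog3 in 38 and 40. Scores of Neurog3 and Pax6 had a Spearman correlation of 0.32 across the WT nuclei and 0.01 across the KO nuclei, and those of Neurog3 and Hes1 of -0.08 and 0.00. These scores are sparse and share the depth of each nucleus, so the weak values are given as a description.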

How the data were processed

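In the ATAC matrices, the authors deposited an accessibility signal per gene (here, gene score), and the values show that each nucleus sums to 10000 over 8269 genes. For RNA, the authors deposited unscaled UMI counts of 31028 gene symbols. Barcode prefixes in the deposited files name the library of each cell. The build is mm10, per the submitters' processing notes, whereas the sources used here do not give the aligner, the cell filters or the tool behind the gene score. The scaled signal keeps no fragment depth, so the number of genes above 0 stands in for it. The matrices held 0 columns of samples of other series.

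The endocrine-like nuclei were chosen as the report states. Mean scores, log2 ratios and 2-fold calls were computed per library with Python 3.11.15, pandas 2.3.3, numpy 2.4.6 and scipy 1.17.1, for genes above 0 in at least 10% of kept nuclei. RNA cells had at least 1000 genes, and RNA genes at least 50 UMIs. No doublets were called. Shares have exact binomial (Clopper-Pearson) intervals, the difference between shares a Newcombe interval and CPM exact Poisson intervals, at 95%, and PCR and droplet effects lie outside them. The calculations were tested on simulated data. Gene positions came from GENCODE M21 and promoter windows from RefSeq (GRCm38.p6). Named outside the lists were the 20 highest and 10 lowest genes by the smaller ratio of the 2 libraries, the neighbours of the rule genes, Ptf1a, and the 5 highest and 5 lowest for KO over WT. The nuclei, the 13 gene lists and these rules were chosen with earlier results of these data known. A few list genes are not reported here. Alternatives moved the cut, the minimum of genes, the gene filter, the weight of each rule gene and the depth of the compared nuclei.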

Additional observations from a re-analysis of the deposited data

Results flagged for a closer look

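For the genes and lists below the 2 libraries of E10.5 nuclei moved in opposite directions, with a size of at least 0.25 on the log2 scale in each for single genes. Each value is the log2 ratio of mean score in endocrine-like over other nuclei. The difference between libraries was not tested, because each genotype had 1 library. Among secretory genes, Ppy, the pancreatic polypeptide gene, was at 0.36 in WT and -0.37 in KO, and Syt4, a synaptotagmin, at -0.58 and 0.40. Among cell cycle genes, Top2a was at 0.39 and -0.71 and Ccnb1 at 0.33 and -0.58. Of other tissues, the liver gene Apoa2 was at 0.29 and -0.64, the endothelial receptor gene Tie1 at -0.79 and 0.37, and the red cell gene Gypc at -1.07 and 0.52. The median of the blood list was -0.12 in WT and 0.17 in KO.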

How the results depend on the processing

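Taking the top 5% of nuclei gave 97 lower genes, with 279 higher and 325 lower for KO over WT. The top 20% gave 4 higher and 4 lower genes, with 14 and 23 for KO over WT. Without a minimum of genes above 0 the KO over WT counts were 170 and 185, and ranking within 10 bins of genes above 0 gave 21 lower genes. The cause of these shifts was not tested. Under the remaining alternatives these counts stayed within 1.5 times their reported values. Ranking within these bins gave 20 higher genes, 19 of them among the 29, and scaling the rule genes to their means gave 20, of which 17 were shared. The lower genes were less stable, with 11 of 21 and 12 of 30 among the 38 under these settings and 15 of 27 without a minimum. Of the 2-fold KO over WT genes, 96 of 159, 79 of 177 and 129 of 355 were among the 207 reported. The difference in share lay between -0.30 and 1.55 percentage points, and the Ptf1a ratio of KO over WT between -1.03 and -0.58. For the 20 highest genes, 197 of 200 values stayed within 1.5 times, for the 10 lowest 79 of 100, and none reversed. These totals include the changes of the gene filter, which leave the value of a gene the same by construction. Of the 20 highest, 3 stayed 2-fold with the top 20% and 14 with scaled rule genes. Of the 10 lowest, 0 and 4 did. No paired analysis was possible because the WT and KO libraries share 1 number only, with 1 library per genotype. Few nuclei enter some means, 66 to 68 for KO over WT and 22 for KO at E13.5, and several of the lowest genes have scores near 0.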
